A study of Saccharomyces cerevisiae with 9 samples.

Results

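Long noncoding RNAs that lie upstream of, or antisense to, a protein-coding gene were examined together with the mRNA of that gene in *Saccharomyces cerevisiae* cells without the poly(A)-binding protein Pab1. The members were chosen by name: the noncoding RNAs *ICR1*, *IRT1*, *RME2*, *RME3* and *SRG1*, and their targets *FLO11* (YIR019C), *IME1* (YJR094C), *IME4* (YGL192W), *ZIP2* (YGL249W) and *SER3* (YER081W). These make 5 pairs, or 10 of the 6952 transcript entries in the RNA-Seq tables. Each RNA and its target were compared over 3 strains of the W303 background, with 3 libraries per strain and 9 in all.

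WT was strain HFY114, a *MATa* haploid with the alleles ade2-1, can1-100, trp1-1 and ura3-1 and the double alleles of *HIS3* (mutations 11 and 15) and *LEU2* (mutations 3 and 112), all of which the mutants share. In *pbp1Δ* the *PBP1* coding sequence was replaced by *URA3* (*pbp1::URA3*), and in *pab1Δpbp1Δ* *PAB1* was in addition replaced by *kanMX* (*pab1::kanMX*). *PAB1* is essential and its loss is tolerated only with a suppressor such as *pbp1Δ*, so no strain lacks *PAB1* alone, and the comparison of *pab1Δpbp1Δ* with *pbp1Δ* is the one that differs in *PAB1*. By the study's methods each mutant library comes from its own isolate, whereas the WT libraries are technical replicates, so that tests against WT measure, on the WT side, a spread that may be technical. Cells grew in rich medium, in which *SER3* and the meiotic targets are known to be kept low.

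Transcription of a noncoding RNA can silence a gene without the RNA itself acting on it. When RNA polymerase runs through the promoter of the downstream gene, it leaves nucleosomes or histone marks that keep activators away, and this is the accepted mode of action of *SRG1* on *SER3*, of *IRT1* on *IME1* and of *ICR1* on *FLO11*. *RME2* and *RME3* are instead transcribed from the opposite strand of *IME4* and *ZIP2*. They keep these meiotic genes off in haploid cells, while in diploids the a1-α2 repressor shuts off *RME2* and lets *IME4* be expressed.

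The layout of the pairs, taken from the RefSeq annotation of build R64 (strain S288C, in which all 10 members were found), sets what the counts can separate. *ICR1* (chrIX:393884-397082, minus strand) starts 3407 bases before the *FLO11* coding sequence (chrIX:389572-393675) on the same strand and ends 208 bases short of it. *IRT1* (chrX:605936-607424, minus strand) starts 1773 bases before *IME1* (chrX:604569-605651) and ends 284 bases short of it. *SRG1* (chrV:322212-322762, plus strand) starts 474 bases before *SER3* (chrV:322686-324095) and runs over its first 77 coding bases. *RME2* (chrVII:141898-144120, minus strand) is antisense to all of the *IME4* coding sequence (chrVII:142246-144048, plus strand), and *RME3* (chrVII:33109-35013, minus strand) to 90.1% of that of *ZIP2* (chrVII:33098-35212, plus strand).

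**Figure D1:**
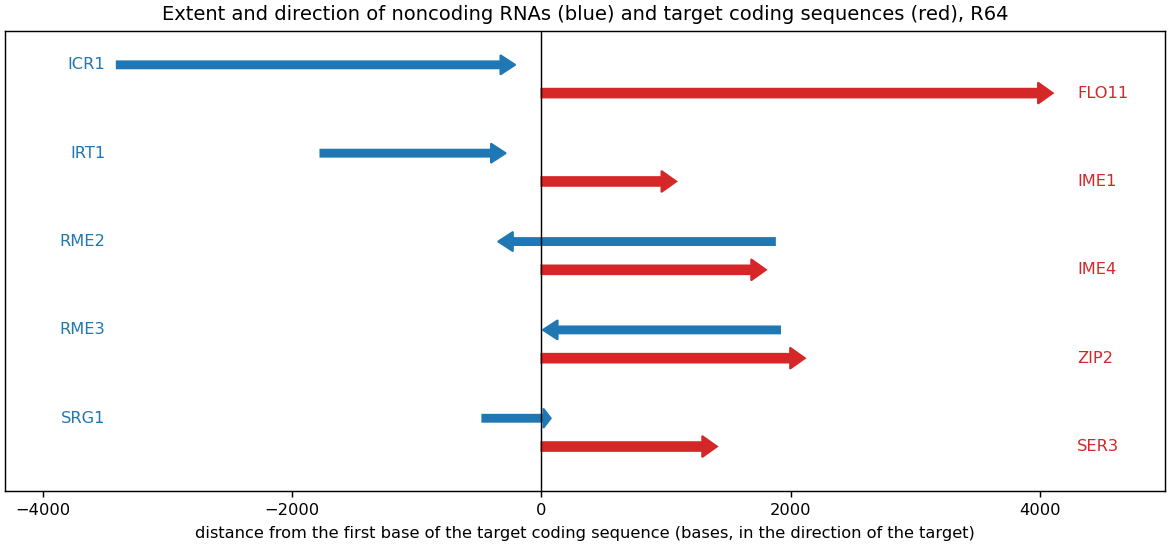
Extent and direction of each noncoding RNA (blue) and of its target's coding sequence (red) along the chromosome, in bases from the first coding base of the target. *ICR1* and *IRT1* end before the target, *SRG1* enters it by 77 bases, and *RME2* and *RME3* run against it.

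The sequences below show why some reads are shared within a pair and others are not. The first is the end of *SRG1* over the start of *SER3* (chrV:322663-322762, plus strand), with the *SER3* start codon in capitals; both RNAs carry the bases from the start codon on. The other pair gives the start of *IME4* (chrVII:142246-142275) as *IME4* reads it, on the plus strand, and as *RME2* reads it, on the minus strand, with the start codon and its complement in capitals.
SRG1 end over SER3: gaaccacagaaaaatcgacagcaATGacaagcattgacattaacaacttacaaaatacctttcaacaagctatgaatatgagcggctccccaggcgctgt
IME4 strand: ATGattaacgataaactagtacattttctg
RME2 strand: cagaaaatgtactagtttatcgttaatCAT

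A read from the overlap of *SRG1* and *SER3* reads the same in either, whereas a read from *RME2* is the reverse complement of one from *IME4* and can be told from it wherever strand is kept. The libraries were made with a stranded kit, but the sources used here do not state whether strand was used in counting. The counts bear on this directly. RSEM, the program that assigned the reads, splits a read that fits several entries and so gives fractional counts. *IRT1*, *RME3* and *IME4* had whole-number counts (within 0.005) in 9 of 9 libraries, and *ZIP2* in 8 of 9, although *IME4* and *RME2* share every coding base of *IME4* on opposite strands. *IME4* received 6 to 98 counts per library where *RME2* received 4553 to 22347. Reads were thus not divided between the antisense partners.

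On the same strand reads can be divided. Of the 75-base windows of *RME2*, 11.1% are also in the entry of YGL193C, a short open reading frame inside it, and 7.3% of those of *ICR1* are in YIR020C. *RME2*, *ICR1*, *SRG1* and *SER3* had fractional counts in 9 of 9 libraries and *FLO11* in 8 of 9. Deposited FPKM (fragments per kilobase, scaled to library depth) and counts together give each entry's length, given a mean fragment length. That was set at 200 bases, where the noncoding entries agreed best. Their medians over libraries were then within 1 base of the annotated lengths, which is in part set by that choice. *IME4*, with few counts, gave 1693 to 2018 bases against 1803 annotated, so its length was not settled. *SER3*, *FLO11*, *IME1* and *ZIP2* were 270 or 271 bases longer than their coding sequences. If all those bases of *SER3* were leader, 347 bases of *SRG1*, or 63.0% of it, would be in the *SER3* entry too, so the split between *SRG1* and *SER3* is an estimate of the counting program. *ICR1* ends 208 bases short of the *FLO11* coding sequence, fewer than the 271 extra bases of the *FLO11* entry. If those 271 were all leader, *ICR1* and *FLO11* would share bases too, and how their reads were split was not tested.

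Motifs were sought in the windows from 250 bases before to 50 bases after the start of each RNA, because the repressors and activators of these RNAs are known. The a1-α2 operator was written as TGT, 8 unspecified bases and ACATCA, on both strands. It was found once before *RME2*, 103 bases from its start (chrVII:144207-144223), and once before *IRT1*, 164 bases from its start (chrX:607572-607588), and 25 of 6476 such windows over all annotated genes (0.386%) hold it. The core bound by Rme1, the activator of *IRT1*, was written as ACCTCAA on both strands. It lay 184 bases before the *IRT1* start (chrX:607602-607608), and 3.845% of the 6476 windows hold this shorter core. A search reaching 2000 bases upstream found another copy at 265 bases (chrX:607683-607689) and one 1428 bases before *ZIP2*, and the share of such longer windows that hold the core was not computed. The matches are shown on the minus strand, that of the RNAs, with the matched bases in capitals.
Operator before RME2: tccagtTGATGTAAAAAAATACAcggact
Operator before IRT1: aaattgTGATGTTGATTAAAACAagtagg
Rme1 core before IRT1, nearer: tgctgtACCTCAAaagcat
Rme1 core before IRT1, farther: aaaagaACCTCAAgaagtc

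Libraries held between 73062374 and 100361384 expected counts. *PAB1* had 22 to 50 counts in *pab1Δpbp1Δ* and at least 108388 in every other library, and *PBP1* had at most 143 in both mutants and at least 22789 in WT. Of the 7 genes that mark a cells and the 4 that mark α cells, none was at 0 in any library. The summed level of the a cell genes lay between 1863 and 1980 CPM (counts scaled to a common library size) in WT and *pbp1Δ* and between 783 and 1169 in *pab1Δpbp1Δ*. That of the α cell genes lay between 52.6 and 64.3 CPM in WT and *pbp1Δ* and between 109 and 230 in *pab1Δpbp1Δ*. *SAG1*, for the α agglutinin, made up 86.9% to 97.0% of that sum in every library. Without it the sum was 1.71 to 4.03 CPM in WT and *pbp1Δ* and 14.3 to 16.6 in *pab1Δpbp1Δ*, and of the 4 genes *MF(ALPHA)2* did not rise (-0.31, edgeR adjusted p = 0.554). All levels given as CPM are normalized with TMM, the trimmed mean of M-values, over the 9 libraries.

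In *pab1Δpbp1Δ* against *pbp1Δ*, 6 of the 10 members rose and none fell at an adjusted p under 0.01 in edgeR's quasi-likelihood test: *ICR1*, *RME2*, *IME4*, *RME3*, *ZIP2* and *SER3*. Over all 6573 entries tested, 18.0% rose by the same rule. The median log2 fold change of the 10 members was 0.99, against 0.03 over all entries and 0.90 over 14 further entries of RNAs or disabled reading frames. In 8 of 10 members every *pab1Δpbp1Δ* library was above every *pbp1Δ* library, which was so for 32.5% of all entries; the exceptions were *FLO11* and *IRT1*. In no pair did the noncoding RNA and its target move in opposite directions with both past the threshold.

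The count of 6 changed whichever single library was left out. Without replicate 1 of *pab1Δpbp1Δ*, whose members were nearest to *pbp1Δ* in most cases, 9 members passed the threshold. Without replicate 2 or 3 of *pab1Δpbp1Δ* 3 and 2 passed, and without replicate 1, 2 or 3 of *pbp1Δ* 2, 1 and 2 passed. *SER3* passed in all 6 of these fits and *RME3* in 5 of 6, *ZIP2* in 2 of 6, and *ICR1*, *RME2* and *IME4* in 1 of 6. The share of all entries that rose moved as well: it was 30.7% without replicate 1 of *pab1Δpbp1Δ*, 15.7% and 9.63% without its replicates 2 and 3, and 6.72%, 6.57% and 7.69% without replicates 1, 2 and 3 of *pbp1Δ*. With single *pbp1Δ* libraries left out, log2 fold changes were 0.74 to 0.83 for *ICR1*, 1.16 to 1.20 for *RME2* and 2.51 to 2.89 for *IME4*. Those of *RME3*, *ZIP2* and *SER3* were 1.325 to 1.51, 1.57 to 1.68 and 2.20 to 2.25.

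**Figure D2:**
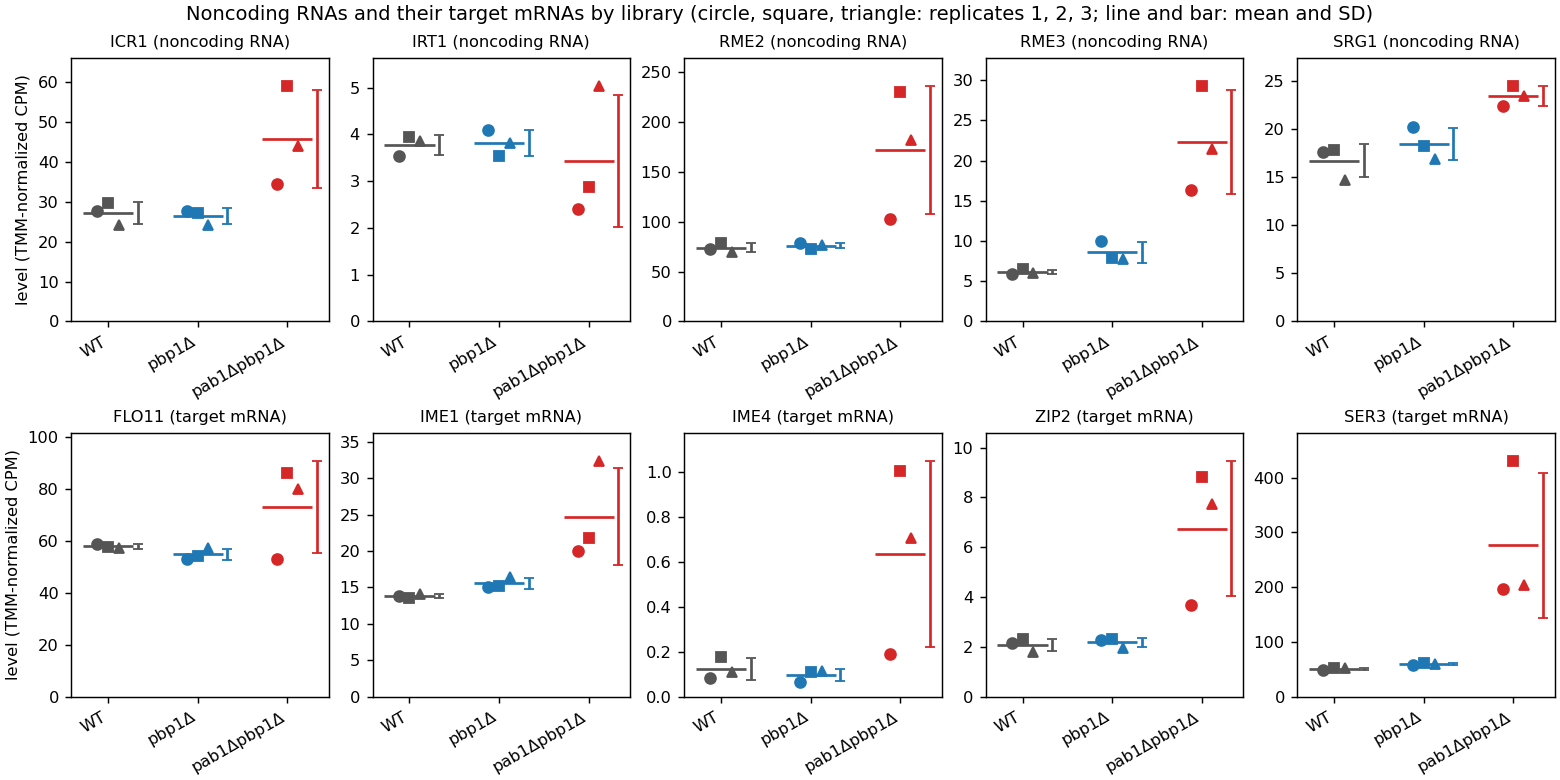
Level of each noncoding RNA (top) and target mRNA (bottom) in TMM-normalized CPM, with 1 point per library, the strain mean as a line and 1 SD as a bar. In 8 of 10 panels all 3 *pab1Δpbp1Δ* libraries are above all 3 *pbp1Δ* libraries; *FLO11* and *IRT1* overlap.

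*SER3* encodes 3-phosphoglycerate dehydrogenase, the enzyme of the first step of serine synthesis from glycolysis, and was the member with the smallest adjusted p. Its level was 48.9, 52.5 and 51.5 CPM in the WT libraries, 57.7, 61.2 and 59.1 in *pbp1Δ*, and 196, 430 and 204 in *pab1Δpbp1Δ*. The strains did not overlap, and replicate 2 of *pab1Δpbp1Δ* stood above the other 2 by more than their distance from *pbp1Δ*. *SER3* rose by 2.23 ± 0.30 (log2, SE) in *pab1Δpbp1Δ* against *pbp1Δ* (edgeR adjusted p = 0.000795), which is a 4.66-fold higher mean.

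*SRG1*, whose transcription represses *SER3*, did not fall. It was at 17.5, 17.8 and 14.7 CPM in WT, 20.2, 18.2 and 16.9 in *pbp1Δ*, and 22.4, 24.4 and 23.4 in *pab1Δpbp1Δ*, so that all *pab1Δpbp1Δ* libraries were above all others. Against *pbp1Δ* the difference was 0.35 ± 0.11 (log2, SE), with an edgeR adjusted p of 0.0288, which missed the threshold. It also missed with DESeq2 (adjusted p = 0.0102), and in edgeR without a filter (0.0337) and with a replicate block (0.0554). It passed in edgeR under upper-quartile normalization (0.00670), which moved the median log2 fold change of all entries from 0.03 to 0.21. The ratio of *SRG1* to *SER3* was lower in every *pab1Δpbp1Δ* library than in any *pbp1Δ* library, by 1.77 on the log2 scale, or 3.41-fold. Per length, *SRG1* was above *SER3* in WT and *pbp1Δ*, at 1.20 to 1.51 times its FPKM, and below it in *pab1Δpbp1Δ*, at 0.239 to 0.485 times. All of these values rest on the counting program's split of reads that fit both entries, which may share up to 63.0% of *SRG1*.

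*SER33* encodes the other 3-phosphoglycerate dehydrogenase and has no such upstream RNA among the members. It fell by 0.93 ± 0.14 (log2, SE) in *pab1Δpbp1Δ* against *pbp1Δ* (edgeR adjusted p = 0.00136), from 139.6 ± 7.9 to 73.0 ± 13.8 CPM (SD, n = 3). *SER33* was the higher of the 2 genes in every WT and *pbp1Δ* library and the lower in every *pab1Δpbp1Δ* library. *SER3* made up 23.95% to 25.3% of the summed CPM of the 2 genes in WT, 29.3% to 30.4% in *pbp1Δ* and 68.9% to 86.5% in *pab1Δpbp1Δ*. Their coding sequences are identical at 82.4% of bases, but no 75-base window is the same in both. Of 1336 windows of *SER3*, 51 (3.8%) have at most 2 mismatches. The mismatches allowed in the alignment are not known here, so this does not bound the reads that fit both genes. *SER33* had fractional counts as well, such as 11411.1 in WT replicate 1, and how many reads were shared was not tested.

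Among 12 genes of serine and glycine metabolism other than *SER3*, with *SER33* counted again, 3 rose and 3 fell in *pab1Δpbp1Δ* against *pbp1Δ*, with a median log2 fold change of 0.15. Over all entries 18.0% rose and 16.7% fell. The 3 that rose, *GCV1* (1.54), *GCV3* (1.43) and *GCV2* (0.76), all encode parts of the glycine cleavage complex, which breaks glycine down. *GLY1*, which encodes threonine aldolase and makes glycine, fell by 1.16, and *CHA1*, the serine and threonine deaminase induced by serine, fell by 1.34; *SER33* was the other that fell. *SER1* and *SER2*, which encode the later steps from phosphoglycerate to serine, were at -0.11 (edgeR adjusted p = 0.486) and -0.52 (0.0146).

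Repression of *SER3* by *SRG1* transcription is known to need factors that put nucleosomes back behind the polymerase. The list of 14 genes for transcription-coupled chromatin factors is wider than these and also holds *SET2*, *RCO1*, *EAF3* and *SET3*. Of the 14, 8 fell and none rose in *pab1Δpbp1Δ* against *pbp1Δ*, with a median of -0.55, where 16.7% of all entries fell. *SET2* was among those that fell (-0.50, edgeR adjusted p = 0.00934). *SPT6*, which encodes a histone chaperone of elongating polymerase, fell by 1.06 ± 0.16 (log2, SE; edgeR adjusted p = 0.00125), and *POB3*, for a subunit of the FACT chaperone, by 0.85. *CTR9* and *CDC73*, for subunits of the Paf1 complex, fell by 0.67 each. *SPT16*, for the other FACT subunit, was at -0.55 (edgeR adjusted p = 0.0127), and *SPT2* at -0.25 (0.394). These are mRNA levels in the libraries where *SER3* was higher, and their part in the *SER3* result was not tested.

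*RME2* and *IME4* differed most in level among the pairs. *IME4* encodes the mRNA N6-adenosine methyltransferase needed for meiosis in diploids. Per length, *RME2* was at 30.8 to 35.5 FPKM in WT and 56.7 to 138 in *pab1Δpbp1Δ*, and *IME4* at 0.04 to 0.09 in WT and 0.13 to 0.72 in *pab1Δpbp1Δ*. The antisense RNA was thus at least 191 times the mRNA in every library.

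Both RNAs rose together. *RME2* was at 72.5, 79.1 and 70.1 CPM in WT, 78.3, 73.1 and 76.4 in *pbp1Δ*, and 103, 230 and 183 in *pab1Δpbp1Δ*; the *pab1Δpbp1Δ* libraries were above all others, with replicate 1 the nearest to them. It rose by 1.18 ± 0.26 (log2, SE; edgeR adjusted p = 0.00595). *IME4* had 6, 14 and 7 counts in WT, 6, 9 and 8 in *pbp1Δ*, and 19, 98 and 69 in *pab1Δpbp1Δ*, where replicate 1 again lay closest to the other strains. It rose by 2.76 ± 0.64 (log2, SE; edgeR adjusted p = 0.00804).

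*IME4* counts were 0.0807% to 0.222% of *RME2* counts in WT and *pbp1Δ* and 0.186%, 0.439% and 0.388% in *pab1Δpbp1Δ*. How many of these few *IME4* counts come from *RME2* reads assigned to the wrong strand was not tested. YGL193C, which shares bases with *RME2*, rose by 1.40 (edgeR adjusted p = 0.00397), and with its counts added *RME2* rose by 1.19 (0.00576). The lower a cell and higher α cell marker levels were in the same libraries as the higher *RME2* levels, and their part in the result was not tested.

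Of 4 other genes for mRNA methylation or its reading, 2 rose and 1 fell in *pab1Δpbp1Δ* against *pbp1Δ*. Among all entries, 18.0% rose and 16.7% fell. *PHO92*, which encodes a reader of the methyl mark, rose by 4.08, from 0.440 ± 0.122 to 7.36 ± 3.54 CPM (SD, n = 3). *SLZ1* rose by 2.28 and *MUM2* fell by 0.64, and both encode partners of Ime4 in the methyltransferase complex. *KAR4* was at -0.29 (edgeR adjusted p = 0.0472).

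*RME3* and *ZIP2* also rose together, and *RME3* was the noncoding RNA that passed the threshold in all 3 comparisons of strains. *ZIP2* encodes a protein of the synapsis initiation complex in meiotic prophase. *RME3* was at 5.95, 6.47 and 6.02 CPM in WT, 10.03, 7.87 and 7.82 in *pbp1Δ*, and 16.4, 29.2 and 21.4 in *pab1Δpbp1Δ*. *ZIP2* was at 2.14, 2.29 and 1.80 CPM in WT, 2.26, 2.29 and 1.96 in *pbp1Δ*, and 3.69, 8.81 and 7.75 in *pab1Δpbp1Δ*. The *RME3* levels of the 3 strains did not overlap, whereas those of *ZIP2* in WT and *pbp1Δ* did.

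In *pab1Δpbp1Δ* against *pbp1Δ*, *RME3* rose by 1.39 ± 0.22 (log2, SE; edgeR adjusted p = 0.00162) and *ZIP2* by 1.64 ± 0.32 (0.00394). The ratio of *RME3* to *ZIP2* overlapped between these strains, with a mean log2 ratio of 1.77 ± 0.34 in *pab1Δpbp1Δ* and 1.93 ± 0.18 in *pbp1Δ* (SD, n = 3). *ZIP2* counts were 22.5% to 36.2% of *RME3* counts over the 9 libraries. *PDE1*, the gene next to this pair, which encodes a cAMP phosphodiesterase, rose by 1.36 in the same comparison (edgeR adjusted p = 0.00067).

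Of 11 other genes of meiotic synapsis and crossing over, 7 rose and none fell in *pab1Δpbp1Δ* against *pbp1Δ*, where 18.0% of all entries rose, with a median log2 fold change of 1.09 against 0.03 over all entries. *ECM11*, for a protein of the central region of the synaptonemal complex, rose by 2.85 and *HOP1*, which encodes a component of the chromosome axis, by 2.03. *MSH4*, for a crossover factor, rose by 1.27 and *CST9*, which encodes a partner of Zip2 known as Zip3, by 1.09. *ZIP1*, for the transverse filament of the synaptonemal complex, was at 0.57 (edgeR adjusted p = 0.0473), and *MSH5* at -0.29 (0.165).

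*IME1* encodes the activator that starts meiosis, and *IRT1* is the RNA transcribed through its promoter. *IRT1* was at 3.54, 3.95 and 3.86 CPM in WT, 4.10, 3.54 and 3.82 in *pbp1Δ*, and 2.40, 2.87 and 5.03 in *pab1Δpbp1Δ*. The *pab1Δpbp1Δ* libraries lay on both sides of the others, and the difference from *pbp1Δ* was -0.15 ± 0.29 (log2, SE; edgeR adjusted p = 0.676); under upper-quartile normalization it was 0.04. *IRT1* was the least abundant noncoding member, at 2.08 to 4.89 FPKM over the 9 libraries.

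*IME1* was at 13.8, 13.5 and 14.1 CPM in WT, 15.1, 15.1 and 16.4 in *pbp1Δ*, and 20.0, 21.8 and 32.3 in *pab1Δpbp1Δ*. The 3 strains did not overlap, and the library highest in *IME1* was also the highest in *IRT1*. Against *pbp1Δ* the difference of 0.67 ± 0.18 (log2, SE; edgeR adjusted p = 0.0153) missed the threshold. It passed with DESeq2 (adjusted p = 0.00224), with all 9 libraries in the edgeR fit (0.00464), with upper-quartile normalization (0.00639) and with a replicate block (0.00996), so the call turns with the fit. Against WT *IME1* rose by 0.83 ± 0.18 (0.00614). The ratio of *IRT1* to *IME1* was lower in all *pab1Δpbp1Δ* libraries, by 0.85 on the log2 scale against *pbp1Δ*.

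*RME1*, which encodes the activator of *IRT1* and the haploid repressor of meiosis, fell by 1.02 ± 0.11 (log2, SE; edgeR adjusted p = 0.000338). Its level was 93.8 to 103 CPM in the 6 WT and *pbp1Δ* libraries and 44.8 to 54.6 in *pab1Δpbp1Δ*. The mean *RME1* mRNA level in *pab1Δpbp1Δ* was 0.490 times that in *pbp1Δ*, and *IRT1* showed no change past the threshold in this comparison. Without replicate 3 of *pab1Δpbp1Δ* the *IRT1* difference was -0.53 (edgeR adjusted p = 0.093). Whether *IRT1* followed *RME1* was not tested. *UME6*, for the repressor that Ime1 converts into an activator, was at 0.69 ± 0.18 (edgeR adjusted p = 0.0145).

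Of 14 genes that act on *IME1* or early in meiosis, 3 rose and 1 fell in *pab1Δpbp1Δ* against *pbp1Δ*, with a median of 0.14. Over all entries 18.0% rose and 16.7% fell. *RIM4*, for an RNA-binding protein of meiosis, rose by 2.58, *IME2*, for a meiotic protein kinase, by 1.71 and *NDT80*, for the activator of middle meiotic genes, by 1.43. *RME1* was the gene that fell. *NDT80* was low throughout, at 0.961 ± 0.178 CPM in *pbp1Δ* and 2.585 ± 0.047 in *pab1Δpbp1Δ* (SD, n = 3).

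*FLO11* encodes a cell-surface flocculin needed for adhesion and filamentous growth. *ICR1* was at 27.6, 29.6 and 24.2 CPM in WT, 27.8, 27.3 and 24.2 in *pbp1Δ*, and 34.4, 58.9 and 43.9 in *pab1Δpbp1Δ*, which was above all other libraries. *FLO11* was at 58.9, 57.6 and 57.1 CPM in WT, 52.9, 54.2 and 57.2 in *pbp1Δ*, and 52.8, 86.0 and 79.9 in *pab1Δpbp1Δ*. Replicate 1 of *pab1Δpbp1Δ* was the lowest of all 9 libraries for *FLO11*, at 52.79 CPM beside 52.88 in replicate 1 of *pbp1Δ*. The other libraries of *pab1Δpbp1Δ* were the highest. In FPKM, which is not scaled by TMM, that replicate 1 was at 14.15, above every WT and *pbp1Δ* library (at most 12.56 and 13.01).

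*ICR1* rose by 0.80 ± 0.19 (log2, SE; edgeR adjusted p = 0.00877) in *pab1Δpbp1Δ* against *pbp1Δ*, and *FLO11* differed by 0.42 ± 0.18 (0.0738), short of the threshold. With the counts of YIR020C, which lies inside it, *ICR1* gave the same log2 fold change, 0.80, with an adjusted p of 0.0114, which is no longer past the threshold. The ratio of *ICR1* to *FLO11* was higher in every *pab1Δpbp1Δ* library than in any *pbp1Δ* library, by 0.38 on the log2 scale. It rests on the counting program's split of any reads that fit both entries. *PWR1*, the RNA from the strand opposite *ICR1* that is known to oppose it, had 6 to 20 counts per library and was at 0.45 ± 0.37 (log2, SE; edgeR adjusted p = 0.322).

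Of 12 genes for regulators of *FLO11*, 1 rose and 2 fell in *pab1Δpbp1Δ* against *pbp1Δ*, with a median of -0.08. These shares are at or below those over all entries, of which 18.0% rose and 16.7% fell. *NRG1*, for a repressor, rose by 1.62, and *PHD1* and *STE12*, which encode activators of filamentous growth, fell by 1.68 and 0.64. *SFL1*, for a repressor that is known to favour *ICR1* transcription, was at -0.19 (edgeR adjusted p = 0.143). Of the other 4 flocculin genes *FLO10* rose by 1.19, and *FLO5*, *FLO9* and *FLO1* were at 0.90 (edgeR adjusted p = 0.0105), 0.58 (0.0317) and -0.01 (0.972).

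**Figure D3:**
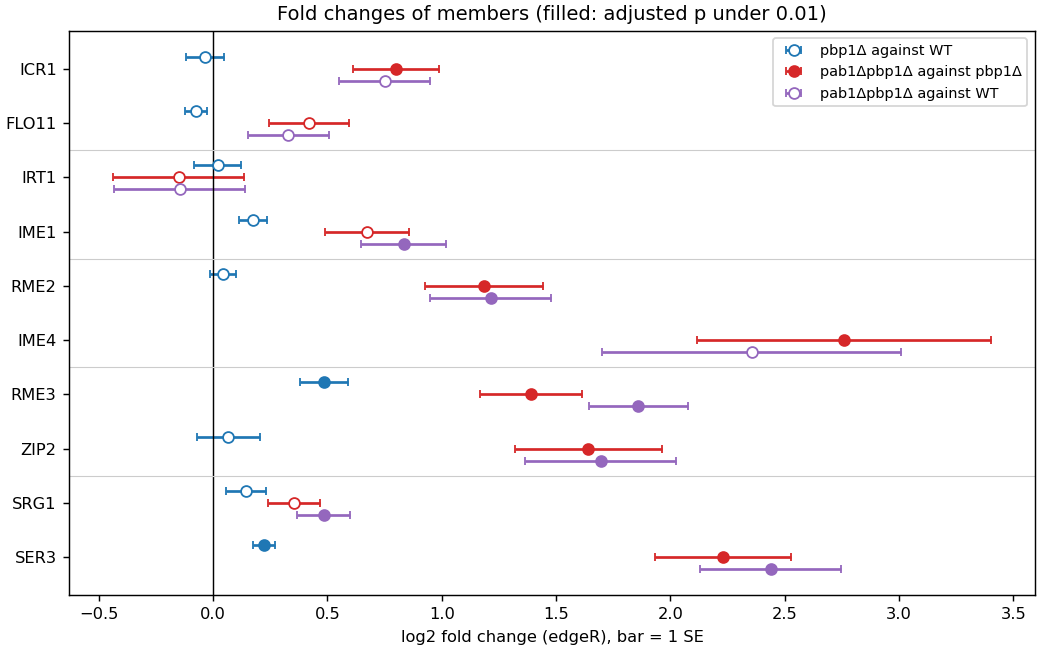
Log2 fold change of each member in edgeR with 1 SE, for *pbp1Δ* against WT (blue), *pab1Δpbp1Δ* against *pbp1Δ* (red) and *pab1Δpbp1Δ* against WT (purple); filled points have an adjusted p under 0.01. *SER3* and *IME4* lie farthest right in both comparisons of *pab1Δpbp1Δ*, and *IRT1* lies near 0 in all; *IME4* was not tested in *pbp1Δ* against WT.

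Loss of Pbp1 alone was associated with few differences among these RNAs. In *pbp1Δ* against WT, 2 of 9 members tested rose and none fell, and 5.34% of all 6425 entries rose. *IME4* did not pass the filter on low counts in this comparison, so its levels here are a description only. *RME3* rose by 0.49 ± 0.11 (log2, SE; edgeR adjusted p = 0.0091) and *SER3* by 0.22 ± 0.05 (0.00869). All *pbp1Δ* libraries were above all WT libraries for *IME1*, *RME3* and *SER3*, as were those of 21.6% of all entries.

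The other members had log2 differences between -0.08 (*FLO11*) and 0.17 (*IME1*) in *pbp1Δ* against WT. Both rises are open to the choice of fit: with all 9 libraries in the fit, neither passed. In that fit 0.0760% of all 6582 entries rose, so most rises over the whole table were lost as well. The adjusted p of *RME3* ranged up to 0.289 over the alternatives and that of *SER3* up to 0.766, both in that fit.

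In *pab1Δpbp1Δ* against WT, which shares its *pab1Δpbp1Δ* libraries with the comparison above, 6 of 10 members rose and none fell; 21.8% of all 6558 entries rose. These were *IME1*, *RME2*, *RME3*, *ZIP2*, *SRG1* and *SER3*. The largest changes among them were in *SER3*, at 2.44 ± 0.31 (log2, SE; edgeR adjusted p = 0.000561), and *RME3*, at 1.86 ± 0.22 (0.000403). *SRG1* rose by 0.48 ± 0.12 (0.00837). Every *pab1Δpbp1Δ* library was above every WT library for 8 of 10 members, against 35.2% of all entries.

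*ICR1* (0.75, edgeR adjusted p = 0.0129) and *IME4* (2.36, 0.0159) narrowly missed the threshold against WT. With the replicate number as a block, *ICR1* (0.00416) and *IME4* (0.00283) passed and *SRG1* (0.0142) did not. Without replicate 1 of *pab1Δpbp1Δ* 9 members passed, without its replicate 2 or 3 4 and 3, and without any single WT library 2, *RME3* and *SER3*. The share of all entries that rose was 32.9%, 19.3% and 12.4% without replicates 1, 2 and 3 of *pab1Δpbp1Δ* and 9.69% to 11.1% without a WT library.

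The ratio of each noncoding RNA to its target was compared in an exact two-sided permutation test on log2 ratios of CPM (pseudocount 0.1 CPM), over 5 pairs and all pairs of strains. With 3 libraries against 3 the smallest p the test can give is 0.1, so none of the 15 ratios could pass 0.05. The ratio separated *pab1Δpbp1Δ* from *pbp1Δ* without overlap in *ICR1*/*FLO11* (0.38), *IRT1*/*IME1* (-0.85) and *SRG1*/*SER3* (-1.77), each with an exact permutation p of 0.1 and a Benjamini-Hochberg adjusted p of 0.214. It overlapped in *RME2*/*IME4* (-0.63, exact permutation p = 0.2) and *RME3*/*ZIP2* (-0.16, exact permutation p = 0.6). In *pbp1Δ* against WT it did not overlap in *RME3*/*ZIP2*, which was higher by 0.40.

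**Figure D4:**
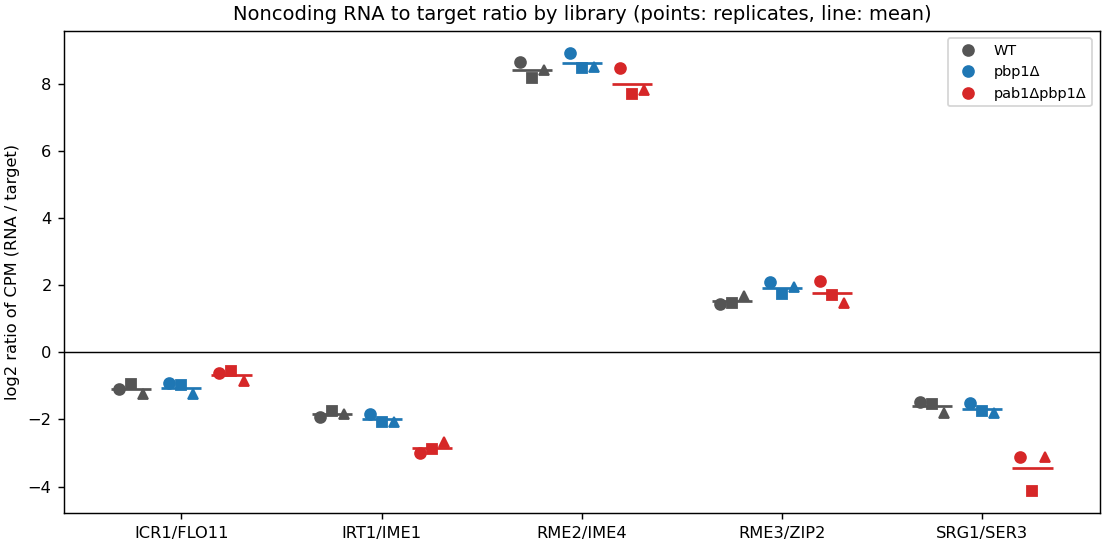
Log2 ratio of the noncoding RNA to its target in each library, from TMM-normalized CPM with a pseudocount of 0.1, with 1 point per library and the strain mean as a line. *SRG1*/*SER3* and *IRT1*/*IME1* are lower and *ICR1*/*FLO11* higher in *pab1Δpbp1Δ* than in *pbp1Δ*; the 2 antisense pairs overlap.

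In both antisense pairs the noncoding RNA and its target rose past the threshold in *pab1Δpbp1Δ* against *pbp1Δ*. Among the upstream pairs *SER3* and *ICR1* rose, while *SRG1*, *FLO11*, *IRT1* and *IME1* did not pass in the edgeR fit of 6 libraries. *IME1* passed under the alternatives given with it, and *SRG1* passed under upper-quartile normalization but not under the others given with it. Whether the change of a target differs from that of its RNA was tested only through the ratios.

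Noncoding RNAs of yeast are removed by the nuclear exosome and its partners, and unstable mRNAs by decapping and nonsense-mediated decay. Of 14 genes for such factors, 6 fell and none rose in *pab1Δpbp1Δ* against *pbp1Δ*, with a median of -0.41, where 16.7% of all entries fell. *MTR4*, for the helicase of the exosome's TRAMP cofactor, fell by 1.31, and *RRP6*, for the nuclear exosome nuclease, by 0.62. *NAM7*, for the decay helicase Upf1, fell by 0.89 and *DIS3*, for the core exosome nuclease, by 0.68. *NRD1* and *NAB3*, for the proteins that end noncoding transcription, were at 0.23 (edgeR adjusted p = 0.139) and -0.31 (0.0314). These are mRNA levels. The study's mass spectrometry found no significant protein change for Dcp2, Xrn1 and exosome components in *pab1Δpbp1Δ*, and a lower level of Upf1. The part of these mRNA levels in the rise of *ICR1*, *RME2* and *RME3* was not tested.

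**Figure D5:**
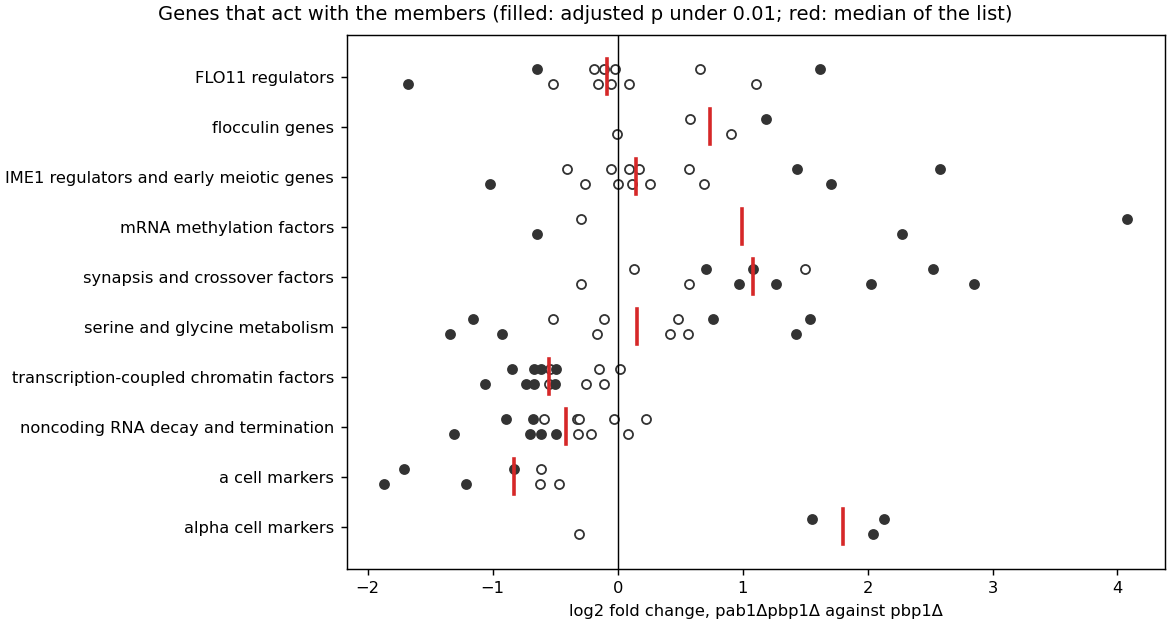
Log2 fold change in *pab1Δpbp1Δ* against *pbp1Δ* of each gene in the lists described in the text, with 1 point per gene, filled at an adjusted p under 0.01, and the list median in red. Synapsis genes lie mostly right of 0, with a median of 1.09, and the chromatin and decay lists mostly left of it, with medians of -0.55 and -0.41.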

How the data were processed

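RNA-Seq of 9 yeast libraries was used. The expected counts deposited by the authors are unnormalized RSEM 1.3.0 estimates per transcript entry, from Bowtie 1.0.0 alignments to a transcriptome of spliced and unspliced mRNAs with UTRs and some noncoding RNAs (build R64). FPKM values from that RSEM run, rounded to 2 decimals, were also deposited by the authors and were used for levels per length. They are not scaled by TMM, so strains can differ more or less in FPKM than in CPM. No columns were left unassigned.

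Counts were rounded and fitted in R 4.3.3 with edgeR 4.0.16 (TMM, filterByExpr with a minimum count of 10, glmQLFit and glmQLFTest) on the 6 libraries of each pair of strains, with Benjamini-Hochberg adjustment over all entries and a threshold of 0.01. limma 3.58.1 is loaded by edgeR. Alternatives were DESeq2 1.42.0, other normalizations, no filter, all 9 libraries, the table per locus, a replicate block, a threshold of 0.05, and each library left out. The fits were tested on simulated data. Positions and sequences came from RefSeq build R64 of S288C, which may differ from W303. The entry lengths assume a mean fragment of 200 bases, the value at which the 5 noncoding entries agreed best. Figures were drawn in Python 3.11.15 with matplotlib 3.10.9.

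Deviations of same-numbered libraries from their strain means correlated at 0.187, 0.238 and 0.202 in *pab1Δpbp1Δ* against WT. Libraries of unlike number were not compared, so these values cannot show that a number pairs samples. The labels do not say that a number marks a shared day.

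Members, gene lists and tests were chosen with earlier results of these data known. Named genes were all members, *SER33*, *RME1*, *UME6*, overlapping or neighbouring genes, up to 4 changed genes per list by adjusted p, and the 3 mRNAs most like each noncoding RNA. Further genes of the lists and the disabled reading frames named were chosen after their values were seen.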

Additional observations from a re-analysis of the deposited data

How the results depend on the processing

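The count of members past the threshold was 6 in *pab1Δpbp1Δ* against *pbp1Δ* and stayed between 6 and 8 under other normalizations, DESeq2, no filter, all 9 libraries, the table per locus and a threshold of 0.05. With a replicate block it was 7, and with single libraries left out 1 to 9. In *pbp1Δ* against WT the count of 2 became 1 with RLE or upper-quartile normalization or without a filter, 0 with all 9 libraries in the fit, and 0 to 1 with libraries left out, and was 2 with a replicate block. In *pab1Δpbp1Δ* against WT the count of members was 6 to 8, 7 with a replicate block, and 2 to 9 with libraries left out. The shares that rose were, in that order, 20.4% to 31.8%, 22.4%, and 9.69% to 32.9%. The share of all entries at a threshold of 0.05 was not computed. Deviations of same-numbered libraries correlated at 0.144, -0.023 and 0.159 in *pab1Δpbp1Δ* against *pbp1Δ* and at 0.475, -0.056 and 0.11 in *pbp1Δ* against WT. Whether a number pairs samples was not settled there either.

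Upper-quartile normalization moved the median log2 fold change of all entries from 0.03 to 0.21 in *pab1Δpbp1Δ* against *pbp1Δ* and from 0.03 to 0.275 against WT, and the 1185 higher and 1100 lower entries of the former to 1682 and 663. It turned *IRT1* to 0.035 against *pbp1Δ* and 0.10 against WT, and *ICR1* to 0.0041 in *pbp1Δ* against WT. With libraries left out, *IRT1* ranged from -0.53 to 0.051 and from -0.51 to 0.067 in these comparisons of *pab1Δpbp1Δ*, and in *pbp1Δ* against WT *IRT1* from -0.041 to 0.070, *ICR1* from -0.12 to 0.021 and *ZIP2* from -0.028 to 0.13. With a pseudocount of 1 CPM, which exceeds most *IME4* levels, the *RME2*/*IME4* ratio difference turned to 0.54 against *pbp1Δ* and 0.62 against WT, and that of *RME3*/*ZIP2* to 0.038. The *ICR1*/*FLO11* ratio in *pbp1Δ* against WT ranged from -0.029 to 0.14 with libraries left out. Adding YIR020C and YGL193C to the entries that hold them was chosen after seeing the data.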

Other observations

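The mRNAs most like each noncoding RNA over the 9 libraries were not their targets. Likeness was Pearson's r of log2(CPM + 1) among 6082 mRNA entries, and since all points share the same 3 strains it is a description. *ICR1* was most like *PLB3* (0.993), *HUA1* (0.987) and YOL162W (0.985), and *FLO11* came at position 1196 with 0.865. *IRT1* was most like *IRC19* (0.935), *LTO1* (0.924) and YJR098C (0.88), and *IME1* came at position 2451 with 0.121. *RME2* was most like YDL109C, *AAD10* and *BIT2* (0.997 each); *IME4*, at 0.983, was not ranked because it was not tested in every comparison. *RME3* was most like YHR210C (0.997), *PUG1* (0.994) and YPL277C (0.994), with *ZIP2* at position 562 (0.949). *SRG1* was most like *MIN3* (0.978), YKR075C (0.976) and *BOL3* (0.968), with *SER3* at position 640 (0.877).

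The tables hold 17 further entries of RNAs or disabled reading frames outside the mRNA entries, of which 14 were tested in *pab1Δpbp1Δ* against *pbp1Δ*. By edgeR's test 5 rose and 1 fell, where 18.0% of all entries rose and 16.7% fell. Their median log2 fold change was 0.90, near the 0.99 of the 10 members, with a range from -0.77 to 3.03. The RNAs RUF5-1 and RUF5-2 had the same counts in every library and each rose by 2.33 (edgeR adjusted p = 0.000177), so their rises are not separate. The signal recognition particle RNA SCR1 and the RNase P RNA RPR1 were at -0.38 (edgeR adjusted p = 0.208) and 0.08 (0.742). *FLO8*, an activator of *FLO11*, is among these entries as YER109C, a pseudogene in RefSeq, and was at 1.00 (edgeR adjusted p = 0.0118).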
